A study of Homo sapiens with 15 samples.

Results

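The 2355 peaks on chromosome 13, of 84767 peaks of both histone marks over all chromosomes, were followed in MDA-MB-231, a human breast cancer line, and in 2 metastatic sub-populations of it. Every peak listed on chromosome 13 was taken, which gave 498 peaks of H3K4me3 (22572 in all) and 1857 of H3K27ac (62195 in all). The chromosome had been chosen by the read counts of its own peaks, whose log2 CPM ratios of LM2 to the parental line stood high, so all comparisons with the parental line below are descriptions, also where peaks past a threshold of the fit are counted, and support nothing. MDA-MB-231 is a triple-negative, claudin-low line, called Par here in its unselected form. LM2 and BrM2 are sub-populations of it selected in vivo for metastasis to lung and brain, respectively. Each is 1 selected population, so its values describe that population. All lines were grown in DMEM with 10% serum, penicillin and streptomycin for 3 days, with no other treatment, and fixation took 10 min in 1% formaldehyde per the labels, where the study's methods give a longer time. Each line had 2 biological replicates per mark, 12 libraries in all, and 3 input samples, 1 per line, were not analysed here.

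H3K4me3 is laid down around transcription start sites of active and poised genes, most of all at CpG islands. H3K27ac marks active promoters and enhancers, and enhancers can lie far from the gene they act on. Chromosome 13 is an acrocentric chromosome whose long arm carries gene-dense stretches next to wide gene-poor ones, and it holds RB1, the retinoblastoma tumour suppressor that restrains entry into S phase, and BRCA2, which acts in repair of double-strand breaks by homologous recombination.

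Peaks are given on hg19 (GRCh37), and no chromosome 13 peak ended beyond base 115081654 of the 115169878 bases of the reference. The H3K4me3 peaks had a median length of 1396 bp, and 234 (47%) lay within 2 kb of the start of a protein-coding gene, against 59.2% over all chromosomes. The H3K27ac peaks had a median length of 1307 bp, and 268 (14.4%) lay at such a promoter, against 24.4% over all chromosomes. Of the H3K4me3 peaks, 433 (86.9%) overlapped an H3K27ac peak. Chromosome 13 was therefore poorer in promoter peaks than the peak sets as a whole, and 878 of its H3K27ac peaks were intergenic.

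The sequences of 6 peaks, chosen after their values were seen, are shown first as examples of the line differences described below. Each is the central 300 bases of the peak on the forward strand of GRCh37. In the 5 H3K27ac sequences, capitals mark TGANTCA, the AP-1 site, which reads as the same motif on both strands, and in the H3K4me3 sequence they mark CG dinucleotides. The first 2 peaks were high in LM2, the next 2 in both sub-populations and the last 2 in BrM2.
DLEU7 intron, chr13:51331310-51331609: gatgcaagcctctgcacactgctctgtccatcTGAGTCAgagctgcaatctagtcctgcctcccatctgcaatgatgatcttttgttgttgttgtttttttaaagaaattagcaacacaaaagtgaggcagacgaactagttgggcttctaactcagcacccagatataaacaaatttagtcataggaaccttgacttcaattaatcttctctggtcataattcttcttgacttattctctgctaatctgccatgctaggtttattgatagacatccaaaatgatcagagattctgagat
Upstream of RFC3, chr13:34184801-34185100: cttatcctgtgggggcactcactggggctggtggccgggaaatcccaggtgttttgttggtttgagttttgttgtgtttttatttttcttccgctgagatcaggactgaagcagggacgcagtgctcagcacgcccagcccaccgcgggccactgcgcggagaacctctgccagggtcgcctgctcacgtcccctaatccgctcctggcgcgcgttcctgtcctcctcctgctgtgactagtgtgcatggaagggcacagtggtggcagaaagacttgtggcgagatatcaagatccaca
Near CBY2, chr13:46248951-46249250: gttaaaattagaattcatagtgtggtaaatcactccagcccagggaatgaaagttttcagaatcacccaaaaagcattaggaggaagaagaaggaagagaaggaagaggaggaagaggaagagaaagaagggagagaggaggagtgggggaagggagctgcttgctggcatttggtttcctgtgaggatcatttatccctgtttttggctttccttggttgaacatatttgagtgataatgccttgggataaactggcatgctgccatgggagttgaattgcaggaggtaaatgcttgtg
NALF1 intron, chr13:108103177-108103476: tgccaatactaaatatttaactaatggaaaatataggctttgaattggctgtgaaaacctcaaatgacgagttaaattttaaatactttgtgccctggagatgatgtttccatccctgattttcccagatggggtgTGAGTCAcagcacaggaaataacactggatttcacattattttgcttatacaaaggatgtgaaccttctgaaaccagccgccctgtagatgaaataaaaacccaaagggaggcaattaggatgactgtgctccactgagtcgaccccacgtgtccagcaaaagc
Beyond SLITRK5, chr13:89814398-89814697: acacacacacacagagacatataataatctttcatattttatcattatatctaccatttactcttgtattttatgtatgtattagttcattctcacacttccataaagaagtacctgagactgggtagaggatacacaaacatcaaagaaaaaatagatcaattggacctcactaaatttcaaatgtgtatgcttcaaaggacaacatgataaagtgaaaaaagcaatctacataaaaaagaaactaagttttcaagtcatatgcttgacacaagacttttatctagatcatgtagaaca
LINC00452, chr13:114613168-114613467: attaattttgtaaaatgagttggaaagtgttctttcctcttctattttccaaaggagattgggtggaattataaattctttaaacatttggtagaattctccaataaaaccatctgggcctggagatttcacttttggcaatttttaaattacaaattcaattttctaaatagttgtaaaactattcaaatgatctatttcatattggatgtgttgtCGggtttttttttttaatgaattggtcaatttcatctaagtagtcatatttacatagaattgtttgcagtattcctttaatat

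The DLEU7 and NALF1 sequences each held 1 TGANTCA. In the same central 300 bases, 15.8% of all chromosome 13 H3K27ac peaks held it. Among H3K27ac peaks called between BrM2 and LM2 below, 2 of the 42 lower in BrM2 held it (4.76%). So did 1 of the 8 higher in BrM2 (12.5%), beside 17.7% of the tested H3K27ac peaks of the chromosome. The stretch upstream of RFC3 held 15 CG dinucleotides, against a median of 3 over the H3K27ac peaks of the chromosome. The LINC00452 stretch held 1, against a median of 14 over the H3K4me3 peaks. These matches describe the letters of the reference and are no measure of factor binding.

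The whole chromosome stood higher in LM2 (plot of chromosome medians). Of all reads counted in H3K4me3 peaks, chromosome 13 took 1.78% and 1.68% in the Par libraries, compared with 2.53% and 2.35% in LM2 and with 1.81% and 1.71% in BrM2. For H3K27ac the shares were 1.98% and 1.8% in Par, compared with 2.87% and 2.81% in LM2 and with 2.02% and 1.96% in BrM2. Both LM2 libraries lay above all Par and BrM2 libraries in either mark, and the shares of BrM2 lay close to those of Par. The widest Wilson 95% interval of the shares ran from 1.94% to 1.98%, for the H3K27ac library of BrM2 replicate 2, and the intervals cover counting error only. From these counts, more DNA copies of the chromosome cannot be told apart from more of each mark per copy, since the inputs were not analysed here. Libraries of the marks held between 1994996 and 9839629 reads in peaks.

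Levels were then taken per peak as log2 of the count scaled to the library's total of reads in peaks (CPM) plus 0.25, relative to the mean of the Par libraries, over the 316 H3K4me3 and 918 H3K27ac peaks of the chromosome with a mean count of at least 20. The median LM2 level was 0.45 ± 0.01 for H3K4me3 (SD of the 2 same-numbered differences, n = 2), a fold of 1.37, and 0.58 ± 0.081 for H3K27ac, a fold of 1.49. The median BrM2 level was 0.01 ± 0.058 for H3K4me3 and 0.02 ± 0.063 for H3K27ac. Peaks of the other chromosomes had medians of −0.03 and −0.01 in LM2 and of 0.02 and −0.03 in BrM2. Among 23 chromosomes, chromosome 13 had the highest LM2 median in both marks, and chromosome 15 came next with 0.23 for H3K4me3 and 0.20 for H3K27ac. In BrM2, chromosome 13 ranked 14 for H3K4me3 and 9 for H3K27ac. For H3K4me3 the sign of the BrM2 median depended on the scaling, at −0.05 with median-of-ratios size factors and −0.07 with TMM factors.

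**Figure D1:**
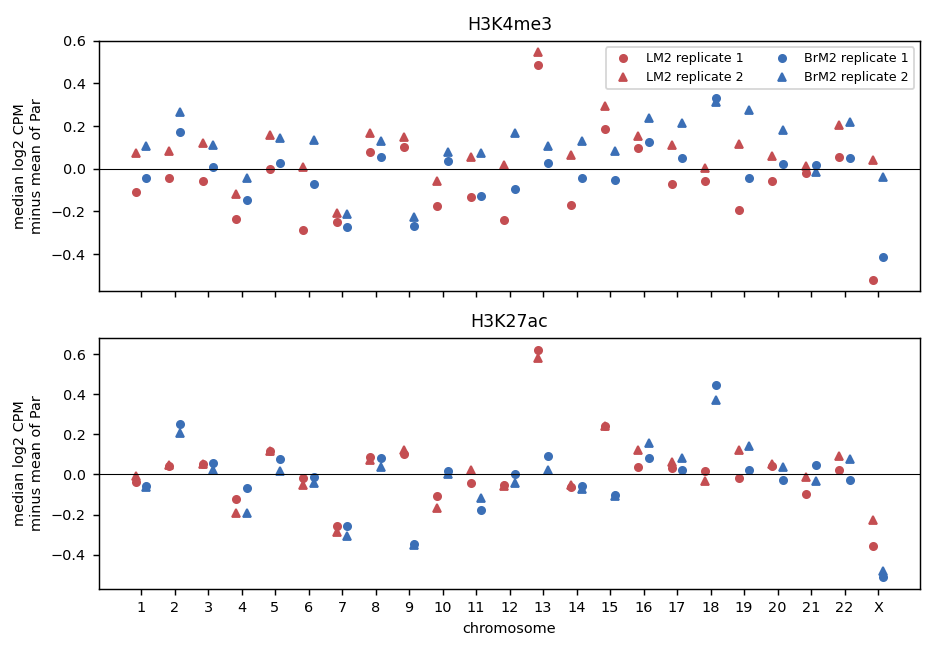
Median log2 CPM of the peaks of each chromosome (x axis) minus the mean of the Par libraries (y axis), for H3K4me3 (top) and H3K27ac (bottom). Each point is 1 library of LM2 or BrM2, and chromosome 13 shows LM2 medians of 0.49 and 0.55 for H3K4me3 and of 0.62 and 0.58 for H3K27ac, above those of the other chromosomes.

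The higher LM2 level was spread over many peaks. For H3K4me3, 171 of 316 peaks (54.1%) had both LM2 libraries above both Par libraries, where 19.3% of peaks of all chromosomes did. For H3K27ac this held for 621 of 918 peaks (67.6%), where 22.9% of all peaks did. Both LM2 libraries lay below both Par libraries at 3 H3K4me3 peaks (0.949%, beside 12.5%) and 17 H3K27ac peaks (1.85%, beside 20.5%). The interquartile range of the LM2 levels ran from 0.28 to 0.72 for H3K4me3 and from 0.31 to 0.955 for H3K27ac. In BrM2, 63 H3K4me3 peaks (19.9%) lay above Par and 23 (7.28%) below, beside 20% and 14.8% over all chromosomes. The H3K27ac peaks of BrM2 divided into 273 above (29.7%) and 216 below (23.5%), beside 25.9% and 27.8%. The BrM2 counts above Par were thus near the genome-wide shares, with H3K4me3 below Par at a smaller share.

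The LM2 median was above 0 in every class of peak examined, by position, mean count and base composition. The libraries were not apart in every class, as LM2 replicate 1 lay below Par replicate 2 in some H3K4me3 classes. These values were 0.19 and 0.29 at peaks over 2 kb from a coding start. They were 0.15 and 0.34 in the lowest tertile of mean count, and 0.13 and 0.25 in the lowest tertile of GC content. H3K4me3 peaks at promoters had a median of 0.45 in LM2, and those farther away 0.44. For H3K27ac, promoter peaks stood at 0.44 and distal peaks at 0.65. H3K27ac peaks that overlapped no H3K4me3 peak had an LM2 median of 0.69 over 566 peaks. From the lowest to the highest tertile of mean count, the H3K27ac level went from 0.76 to 0.49. By GC content it went the opposite way in the marks, from 0.32 in the lowest tertile to 0.63 in the highest for H3K4me3 and from 0.67 to 0.49 for H3K27ac. The corresponding BrM2 medians lay between −0.08 and 0.31 over tertiles of count and of GC content. The 17 H3K4me3 peaks that overlapped no H3K27ac peak stood higher, at 1.74 in BrM2 and 0.84 in LM2. Their median mean count was 34.2, against 322 at H3K4me3 peaks that overlapped one. Among them the FLT1 promoter peak passed the mean-count filter only through its BrM2 reads. The part of depth and GC content in these differences was not tested.

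Along the chromosome, in windows of 5 Mb that held at least 5 peaks, LM2 was above Par almost throughout (plot of window levels). Both LM2 libraries exceeded both Par libraries in 16 of 16 H3K4me3 windows, where 21.7% of windows of all chromosomes did. They did so in 17 of 18 H3K27ac windows, against 25.9%. The window medians of LM2 ran from 0.14 to 1.27 for H3K4me3 and from 0.23 to 1.41 for H3K27ac. BrM2 lay above Par in 4 of 16 H3K4me3 windows and 5 of 18 H3K27ac windows, beside 20.8% and 26.4% over all chromosomes. In 2 H3K27ac windows, at 30 and 50 Mb, BrM2 lay below Par, where 28.8% of all windows did. Its window medians were within 0.3 of Par in 14 windows of either mark. The count of BrM2 windows above Par was higher with some libraries left out. It was 62.5% of the H3K4me3 windows without Par replicate 2 and 50% without BrM2 replicate 1. For H3K27ac windows it was 83.3% without Par replicate 1 and 44.4% without BrM2 replicate 2. With a library fewer, the rule is easier to meet and a library lacks its same-numbered partner, so these shares are not like the full count.

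The lowest LM2 window of both marks was that from 80 to 85 Mb, which holds SPRY2, an inhibitor of receptor tyrosine kinase signalling, and NDFIP2, an adaptor of Nedd4-family ubiquitin ligases. There the H3K27ac medians were 0.19 and −0.19 in Par, compared with 0.30 and 0.15 in LM2 and with 0.09 and −0.08 in BrM2, and LM2 overlapped Par. The highest LM2 window was that from 85 to 90 Mb, around SLITRK5 and SLITRK6, membrane proteins of neurons that act in neurite growth and synapse formation. Its 14 H3K27ac peaks had medians of 1.84 and 1.02 in LM2 and of 1.49 and 1.02 in BrM2, both above the Par values of 0.22 and −0.22. In that window the 5 H3K4me3 peaks had medians of 0.75 and 1.26 in LM2 and of 4.05 and 4.70 in BrM2, the highest H3K4me3 window of BrM2. The BrM2 level of the window, 4.37, was that of the single peak at chr13:88461258-88463580. Peaks at chr13:88506603-88507561 and chr13:89813876-89815482 passed the mean-count filter only through their BrM2 reads. The BrM2 rank of this window was thus partly set by the filter. For H3K27ac, BrM2 was highest from 65 to 70 Mb, the window of the protocadherin gene PCDH9, at 1.47 and 1.18, where the LM2 median was 1.19. The lowest BrM2 windows were 45 to 50 Mb for H3K4me3, with a median of −0.12, and 50 to 55 Mb for H3K27ac, with −0.20. The windows with the largest values were gene-poor and shallow, since the median of the mean counts was 32.9 and 33.7 in the H3K27ac windows at 85 and 65 Mb, against 34.2 to 70.7 in the other H3K27ac windows of at least 5 peaks.

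**Figure D2:**
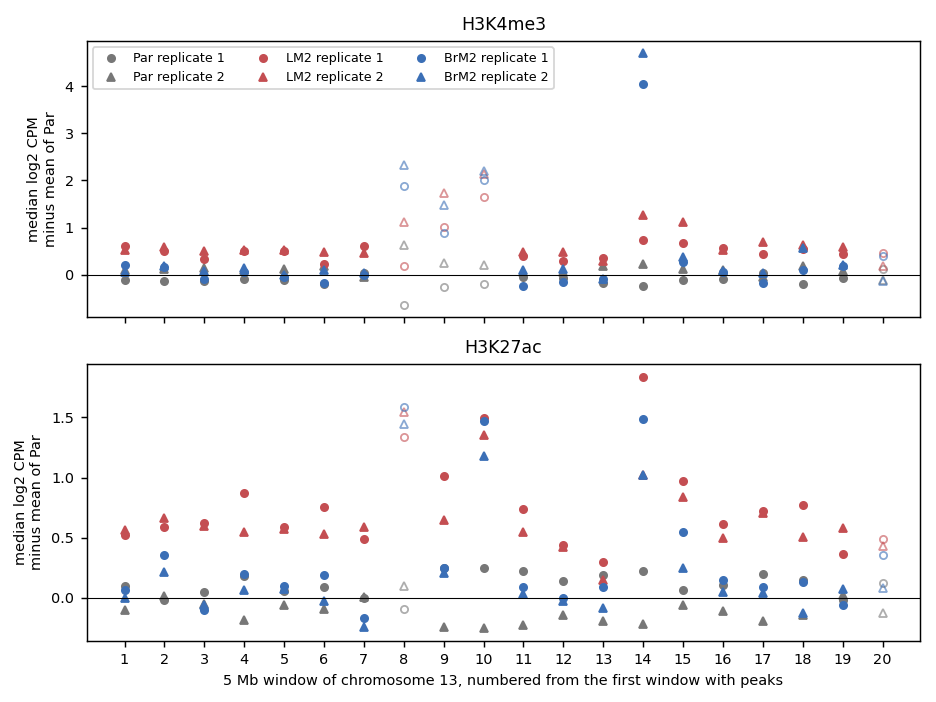
Median log2 CPM minus the mean of Par (y axis) in each 5 Mb window of chromosome 13 (x axis, window 1 starts at 20 Mb), for H3K4me3 (top) and H3K27ac (bottom). Each point is 1 library, open points are windows with under 5 peaks, and LM2 lies above Par in 16 of 16 and 17 of 18 windows while BrM2 rises mainly in windows 10 and 14.

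The marks followed each other along the chromosome. To keep shared regions out, H3K27ac was taken from peaks that overlapped no H3K4me3 peak. Over 16 windows the LM2 medians of both marks had a Pearson r of 0.942 and a Spearman rho of 0.871, and r was 0.904 without the 2 windows farthest from the median of H3K4me3 (85 and 90 Mb). For BrM2 the Pearson r was 0.892 and rho 0.335, and without those windows r was −0.086, so the BrM2 relation rested on them. The windows share libraries within a mark and differ in depth, and the coefficients are descriptions.

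LM2 and BrM2 were then set against each other by the DESeq2 Wald test over all peaks of a mark. This contrast shares the LM2 libraries that picked the chromosome. Per peak, BrM2 minus LM2 had a median log2 of −0.55 over the 474 H3K4me3 peaks of the chromosome that were tested, and of −0.50 over 1302 H3K27ac peaks, against −0.04 and 0.01 over all peaks. At an adjusted p under 0.05, 28 H3K4me3 peaks differed (5.91%, beside 3.35% of all peaks), 18 of them higher and 10 lower in BrM2, where 2.15% and 1.19% of all peaks were called. For H3K27ac, 50 peaks differed (3.84%, beside 2.87%), 8 higher and 42 lower, beside 1.68% and 1.19% of all peaks. The replicate numbers paired the libraries, and with the replicate block 206 H3K4me3 peaks differed, 23 higher and 183 lower, and 100 H3K27ac peaks, 9 higher and 91 lower. With the block, 22.5% of all H3K4me3 and 6.17% of all H3K27ac peaks were called, and 9.19% and 13.3% of all H3K4me3 peaks and 3.65% and 2.52% of all H3K27ac peaks in the respective directions. The pairing thus turned the majority of H3K4me3 calls from higher to lower. Fewer calls were made when a library of either line was left out, and the H3K4me3 count then fell to 10 without LM2 replicate 1, 8 without LM2 replicate 2, 10 without BrM2 replicate 1 and 4 without BrM2 replicate 2. The H3K27ac count fell to 5, 13, 3 and 12, respectively.

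Against Par the calls were as follows, as descriptions from which nothing is read, since these values chose the chromosome. In LM2, 25 of 446 H3K4me3 peaks were called (5.61%, beside 2.51% of all peaks) and every one was higher, and 98 of 1269 H3K27ac peaks (7.72%, beside 3.89%), 96 of them higher. In BrM2, 31 of 474 H3K4me3 peaks (6.54%, beside 3.73%) were called, again all higher, and 58 of 1413 H3K27ac peaks (4.1%, beside 5.29%), 50 of them higher. Over all peaks of H3K4me3, 1.97% were called higher and 0.538% lower in LM2, and 2.91% and 0.825% in BrM2. Over all peaks of H3K27ac these shares were 2.91% and 0.976% in LM2 and 3.62% and 1.67% in BrM2. With the replicate block the LM2 counts were 166 and 146 and the BrM2 counts 62 and 78, beside 14.8% and 5.81% of all peaks for LM2 and 19% and 8.81% for BrM2. By direction, 165 H3K4me3 peaks were higher and 1 lower in LM2 (9.17% and 5.67% of all peaks) and 51 higher and 11 lower in BrM2 (9.15% and 9.83%). For H3K27ac, 142 were higher and 4 lower in LM2 (3.82% and 1.98%) and 65 higher and 13 lower in BrM2 (5.48% and 3.34%). Once the median of each 5 Mb window was removed from the libraries, 5 H3K4me3 and 37 H3K27ac peaks were called in LM2. With single libraries left out, the LM2 counts fell as low as 3 H3K4me3 calls without Par replicate 2 and 14 H3K27ac calls without LM2 replicate 1, and the BrM2 counts as low as 6 without BrM2 replicate 2 and 9 without BrM2 replicate 1.

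Of the 78 peaks that differed between BrM2 and LM2, 6 stayed called with each library left out in turn, with the block, and with the window medians removed. At 3 of these 6 sites BrM2 was high in H3K4me3. The first lay in the lncRNA gene LINC00452 (chr13:114610754-114615881), 43705 bp from the start of GAS6, which encodes a ligand of the AXL, TYRO3 and MERTK receptor kinases. Its H3K4me3 CPM was 8.88 and 12.7 in Par, compared with 3.44 and 7.42 in LM2 and with 45.8 and 58.6 in BrM2. Both LM2 libraries were thus below Par and both BrM2 libraries far above it. BrM2 exceeded LM2 by a log2 of 3.16 ± 0.42 (SE; DESeq2, adjusted p = 2.23e-11). The broad H3K27ac peak over it, 14192 bp long, had CPM values of 90.8 and 61.3 in Par, compared with 51.5 and 60.9 in LM2 and with 164 and 131 in BrM2, and BrM2 exceeded LM2 by 1.46 ± 0.295 (adjusted p = 0.000171). That H3K27ac call was lost without LM2 replicate 1 (adjusted p = 0.0746) or BrM2 replicate 1 (0.15).

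The other 2 H3K4me3 sites lay in the gene-poor stretch beyond SLITRK5. At chr13:89813876-89815482, 1489006 bp from the start of SLITRK5, CPM was 0.86 and 0.298 in Par, compared with 0.459 and 0.711 in LM2 and with 13.3 and 23.3 in BrM2. In raw reads these were 3 and 2, 2 and 7, and 61 and 188. BrM2 exceeded LM2 by a log2 of 4.83 ± 0.74 (adjusted p = 2.51e-08). The H3K27ac peak at the same place (chr13:89813715-89815380) held 1 and 4 reads in Par, compared with 18 and 5 in LM2 and with 98 and 42 in BrM2, and BrM2 exceeded LM2 by 3.49 ± 0.57 (adjusted p = 6.75e-07), also with each library left out. At chr13:88506603-88507561, 181733 bp from SLITRK5, H3K4me3 held 0 and 2 reads in Par, compared with 1 and 3 in LM2 and with 56 and 143 in BrM2 (adjusted p = 3e-07). The ratio of BrM2 to LM2 there was 55.8, with an exact 95% interval from 21.5 to 207 for counting error alone.

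More BrM2 peaks lay nearby. Between 80 and 90 Mb, a stretch chosen after its values were seen, 8 of 21 tested H3K4me3 peaks were called higher in BrM2 than in LM2, of 18 such calls on the chromosome. The nearest coding genes were SLITRK1, SLITRK5 and SLITRK6. None of the 8 lay at a coding promoter, and they held at most 7 reads in each Par and LM2 library. Such peaks were in the peak set and the test mainly through their BrM2 reads. Their count and their adjusted p values are therefore descriptions, also at the sites of both marks beyond SLITRK5 given above. Upstream of SLITRK1, at chr13:84484218-84487278, CPM was 0.86 and 0 in Par, compared with 0.459 and 0.102 in LM2 and with 6.77 and 13.8 in BrM2 (adjusted p = 0.000137). This call was lost without BrM2 replicate 2 (adjusted p = 0.188) or LM2 replicate 2 (0.106). In H3K27ac, 4 of 65 tested peaks of this stretch were called higher in BrM2. The SLITRK5 promoter itself (chr13:88322891-88326051) behaved otherwise, with an H3K4me3 CPM of 46.4 and 46.3 in Par, compared with 118 and 112 in LM2 and with 73.6 and 77.5 in BrM2. It was 0.71 lower in BrM2 than in LM2 on the log2 scale, with an adjusted p of 0.352, and of 1.76e-05 with the replicate block. Because its neighbours stood so high in BrM2, the local BrM2 level there was 4.37. The SLITRK5 promoter and an exonic peak 4788 bp from its start (chr13:88329658-88330925) were the lowest departures of BrM2, at −3.67 and −4.04. That local level rested partly on peaks present mainly through BrM2 reads, and it was 1.31 at chr13:88461258-88463580.

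The remaining 2 of the 6 sites were H3K27ac peaks that were high in LM2. One lay in an intron of DLEU7 and within the lncRNA gene DLEU1 (chr13:51329441-51333477), in the region that is often deleted in chronic lymphocytic leukaemia. Its CPM was 2.28 and 3.65 in Par, compared with 38.6 and 39.9 in LM2 and with 3.06 and 1.5 in BrM2. Only the LM2 libraries were high, and BrM2 was lower than LM2 by a log2 of −3.93 ± 0.54 (adjusted p = 8.42e-10). Another lay over an exon of UBAC2 (chr13:99963431-99968101), 3778 bp from the start of GPR183, a receptor for oxysterols that guides immune cells. CPM there was 5.93 and 6 in Par, compared with 41.4 and 40.2 in LM2 and with 5.1 and 4.51 in BrM2, with a BrM2 minus LM2 log2 of −3.00 ± 0.44 (adjusted p = 1.98e-08). At 206250 bp from RFC3, chr13:34183945-34185956 held 2 and 0 H3K27ac reads in Par, compared with 112 and 67 in LM2 and with 5 and 1 in BrM2 (adjusted p = 8.46e-05), and the call was lost without BrM2 replicate 1 (0.192), while DESeq2 gave no adjusted p without LM2 replicate 1. The H3K4me3 peak inside it held 0 and 1, 7 and 25, and 0 and 0 reads (adjusted p = 0.0483). That call was lost without Par replicate 1 (0.0544) or Par replicate 2 (0.0886) and with the window medians removed (0.202), and DESeq2 gave no adjusted p without an LM2 or BrM2 library. Reads of both marks at this place thus came almost wholly from LM2. This place and the sites in DLEU7 and UBAC2 were in the peak set and the test mainly through LM2 reads. Their adjusted p values are therefore descriptions.

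Over the 42 H3K27ac calls lower in BrM2, 40 had both LM2 libraries above both Par libraries. At 28, both BrM2 libraries lay below both of Par. Over all chromosome 13 H3K27ac peaks of the levels, these shares were 67.6% and 23.5%. Over all chromosomes they were 22.9% and 27.8%. The 42 peaks were called for lying lower in BrM2 than in LM2 in the same libraries, so both counts are descriptions. By position, 20 were intergenic, 13 intronic, 6 exonic and 3 at promoters. An example of a broad region is chr13:31365069-31384391, 55389 bp from ALOX5AP, the 5-lipoxygenase activating protein of leukotriene synthesis. CPM was 59.5 and 59.5 in Par, compared with 129 and 121 in LM2 and with 47.4 and 48.1 in BrM2 (adjusted p = 0.000191), a call lost without LM2 replicate 1 (0.0581) or BrM2 replicate 1 (0.0984) and with the window medians removed (0.23). At 157457 bp from IRS2, an adaptor of the insulin and IGF1 receptors, chr13:110596387-110599916 stood at 7.3 and 7.57 in Par, compared with 26.5 and 21.3 in LM2 and with 3.57 and 4.01 in BrM2 (adjusted p = 7.15e-05). It too was lost without LM2 replicate 1 (0.0645) or BrM2 replicate 1 (0.123). With the window medians removed, 8 of the 42 calls were kept, among them the sites near IRS2, GPR183, RFC3 and in DLEU7, and of the 8 calls higher in BrM2 all 8 were.

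Sites called in both marks in the same direction were 4 overlapping pairs, at LINC00452, beyond SLITRK5, upstream of RFC3 and at GJA3. GJA3, a gap junction protein best known from the lens, had promoter H3K4me3 CPM values of 65.9 and 51.2 in Par, compared with 128 and 111 in LM2 and with 61.3 and 48.8 in BrM2. Its H3K27ac values were 9.81 and 9.14, 17.5 and 19.7, and 7.14 and 5.01. BrM2 was lower than LM2 by −1.22 ± 0.38 (adjusted p = 0.0416) and −1.51 ± 0.47 (adjusted p = 0.0456). The H3K4me3 call was lost when any LM2 or BrM2 library or Par replicate 2 was left out. The H3K27ac call was lost without each of the 6 libraries. With the window medians removed the DESeq2 adjusted p was 0.64 and 0.344, and with the replicate block it was 5.47e-16 and 0.0227.

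How far a peak left its surroundings was measured as its log2 difference from Par minus the median of the other peaks within 2.5 Mb on either side (departure). A peak was counted when it lay at least 1 log2 unit away and its locally centred values did not overlap Par. In LM2, 15 of 306 H3K4me3 peaks departed (4.9%, beside 5.5% of all peaks) and 84 of 918 H3K27ac peaks (9.15%, beside 8.35%). In BrM2 the counts were 24 (7.84%, beside 6.57%) and 123 (13.4%, beside 10.8%). Within the raised level of LM2, the share of peaks that left it was near that of the genome. More departures were upward than downward in each mark and sub-population. In LM2, 13 H3K4me3 peaks were higher and 2 lower, beside 4.07% and 1.43% of all peaks, and 66 H3K27ac peaks higher and 18 lower, beside 6.5% and 1.85%. In BrM2, 20 H3K4me3 peaks were higher and 4 lower, beside 5.27% and 1.31%, and 85 H3K27ac peaks higher and 38 lower, beside 6.8% and 4.02%. The count depended on depth, since with a mean count of at least 50 it was 7 and 19 in LM2 and 9 and 27 in BrM2. The H3K4me3 count of LM2 was 23 without Par replicate 2 and 34 without LM2 replicate 2, and that of BrM2 was 37 without Par replicate 2. The direction of the LM2 H3K4me3 departures changed with some libraries left out, with 9 higher and 13 lower without Par replicate 1, and 13 higher and 21 lower without LM2 replicate 2. A library then lacks its same-numbered partner, so these counts also carry the difference between replicates.

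Some departures were shared by both sub-populations. An H3K27ac peak at chr13:46247903-46250297, 26158 bp from CBY2, had CPM values of 2.96 and 2.35 in Par, compared with 34.1 and 25.5 in LM2 and with 21.7 and 16.5 in BrM2. Its departures were 2.83 ± 0.076 (SD, n = 2) in LM2 and 2.68 ± 0.055 in BrM2. In an intron of NALF1, which encodes an auxiliary factor of the sodium leak channel NALCN, the peak chr13:108100922-108105731 stood at 10 and 10.2 in Par, compared with 78.4 and 84.6 in LM2 and with 46.1 and 44.6 in BrM2. Departures there were 2.33 ± 0.062 and 2.16 ± 0.048. At chr13:88461258-88463580, 136388 bp from SLITRK5, H3K4me3 reads were 1 and 7 in Par, compared with 24 and 159 in LM2 and with 62 and 172 in BrM2, with departures of 2.565 ± 0.17 and 3.06 ± 0.44. Par was the low line at each of these sites. Between BrM2 and LM2 the NALF1 peak had an adjusted p of 0.139, and of 0.0363 with the replicate block.

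Other departures differed in size between the sub-populations. The named peaks here and below were picked for departures in the same libraries, so their adjusted p values are descriptions. The promoter of SLC15A1, the proton-coupled peptide transporter PEPT1, had H3K4me3 CPM values of 11.7 and 8.94 in Par, compared with 37 and 35.5 in LM2 and with 10.9 and 9.54 in BrM2. Its departure was 1.30 ± 0.23 in LM2 and 0.05 ± 0.14 in BrM2, and BrM2 was lower than LM2 (log2 −1.93 ± 0.43, adjusted p = 0.000515). This call was lost without LM2 replicate 1 (adjusted p = 0.099), without BrM2 replicate 2 (0.172) and with the window medians removed (0.0649). At the promoter of DZIP1, a protein of the base of the primary cilium, values were 5.16 and 6.11 in Par, compared with 47 and 35.3 in LM2 and with 17 and 11.6 in BrM2, highest in LM2 and intermediate in BrM2 (adjusted p = 0.00938). Its departure was 2.26 ± 0.46 in LM2 and 1.33 ± 0.55 in BrM2. The DZIP1 call was lost without LM2 replicate 1 (0.633), without BrM2 replicate 2 (0.648) and with the window medians removed (0.351).

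In BrM2, a promoter peak of MTUS2, a microtubule-associated protein, had H3K4me3 CPM values of 22.7 and 31.2, against 5.44 and 8.64 in Par and 2.3 and 8.64 in LM2. Its departure was 1.93 ± 0.13 in BrM2, and BrM2 exceeded LM2 by 2.21 ± 0.51 (adjusted p = 0.00103), a call lost without LM2 replicate 1 (0.0743), BrM2 replicate 1 (0.052) or BrM2 replicate 2 (0.174). An H3K27ac peak at a promoter of TBC1D4, the AS160 protein that controls GLUT4 traffic, stood at 8.67 and 4.44 in Par, compared with 8.68 and 6.38 in LM2 and with 36.4 and 32.1 in BrM2. BrM2 exceeded LM2 by 2.24 ± 0.42 (adjusted p = 4.32e-05), lost without BrM2 replicate 1 (0.115). FLT1, the VEGF receptor 1 gene, had 1 and 2 H3K4me3 reads in Par, compared with 2 and 11 in LM2 and with 66 and 64 in BrM2. The FLT1 peak was in the peak set and the test mainly through its BrM2 reads, so its adjusted p value is a description. Here BrM2 exceeded LM2 by 3.71 ± 0.78 (adjusted p = 0.000223), lost without BrM2 replicate 1 (0.302) or LM2 replicate 2 (0.0561), and no H3K27ac peak lay at this promoter.

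**Figure D3:**
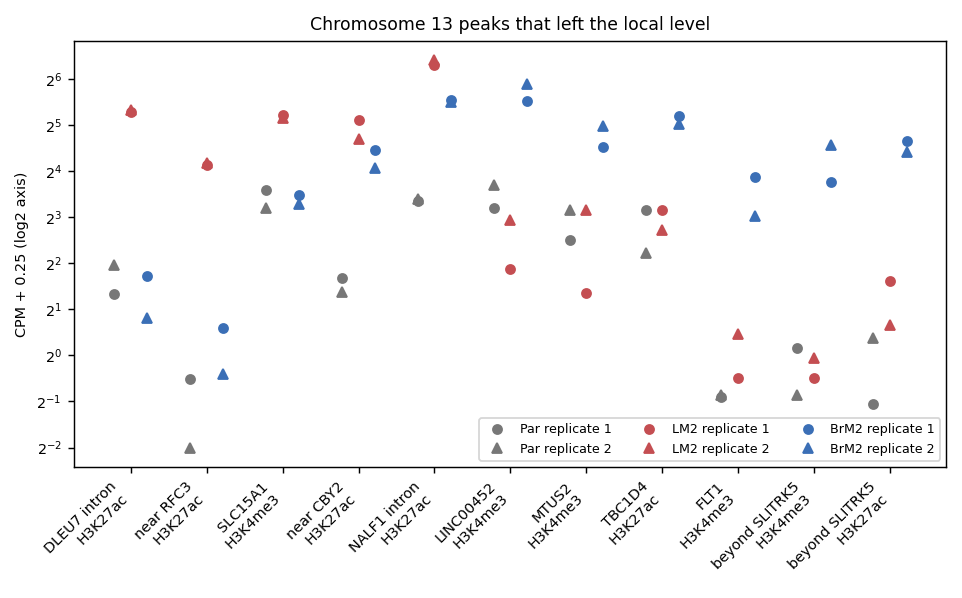
CPM plus 0.25 on a log2 axis (y) in each of the 6 libraries of a mark for 11 chromosome 13 peaks (x) that left the local level. Points are single libraries, and LM2 is high at the first 3 peaks, both sub-populations at the next 2 and BrM2 at the last 6.

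The lowest departures of LM2 were peaks below the LM2 level of their surroundings. The H3K4me3 promoter peak of CCNA1, a cyclin of germ cells and some leukaemias, had CPM values of 56.2 and 38.6 in Par, compared with 47.5 and 44.8 in LM2 and with 72.5 and 37.2 in BrM2, and an LM2 departure of −0.54 ± 0.32. Leaving out Par replicate 1 gave a CCNA1 departure of −0.21, and leaving out Par replicate 2 gave −0.90. At MIR17HG, the host gene of the miR-17-92 cluster of growth-promoting microRNAs, the H3K4me3 CPM was 263 and 188 in Par, compared with 336 and 236 in LM2 and with 229 and 185 in BrM2. LM2 was thus 0.34 above Par where its surroundings stood at 0.85, a departure of −0.51 ± 0.021. The same-numbered differences gave departures of −0.497 and −0.526. Leaving out Par replicate 1 gave −0.186 and Par replicate 2 gave −1.002, and leaving out LM2 replicate 1 gave −1.029 and LM2 replicate 2 gave −0.018. Each of these leaves a library without its same-numbered partner, so the values also carry the difference between replicates. BrM2 against LM2 had an adjusted p of 0.695 at MIR17HG, and of 8.98e-07 with the block. Among H3K27ac peaks, chr13:80560042-80564939, 348855 bp from SPRY2, had the lowest LM2 departure of the named peaks of that mark, −1.45 ± 0.60, with CPM values of 29.9 and 14.6 in Par, compared with 9.92 and 8.78 in LM2 and with 27.5 and 19 in BrM2. LM2 lay below both other lines there (BrM2 minus LM2 1.39 ± 0.44, adjusted p = 0.0497), a call lost in each fit with a library left out, with adjusted p from 0.0501 to 0.813. H3K27ac peaks in an intron of ATP11A (chr13:113375128-113380637), a phospholipid flippase gene, and over an exon of the kinase gene STK24 (chr13:99159212-99163399) had LM2 departures of −1.25 ± 0.33 and −1.10 ± 0.58.

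In BrM2 the lowest H3K27ac departures of the named peaks lay outside protein-coding genes. At chr13:32201914-32205292, 108371 bp from the relaxin family receptor gene RXFP2, CPM was 11.2 and 11 in Par, compared with 22.6 and 11.2 in LM2 and with 4.59 and 1.5 in BrM2. BrM2 was lower than LM2 by −2.295 ± 0.58 (adjusted p = 0.0064), lost without LM2 replicate 1 (0.493), BrM2 replicate 1 (0.144) or BrM2 replicate 2 (0.295) and with the window medians removed (0.154). At chr13:106641962-106645650, 523324 bp from DAOA, values were 24.2 and 22.4 in Par, compared with 28.4 and 25 in LM2 and with 7.14 and 7.52 in BrM2 (BrM2 minus LM2 −1.81 ± 0.41, adjusted p = 0.00122). That call was lost without LM2 replicate 1 (0.13), BrM2 replicate 1 (0.261) or BrM2 replicate 2 (0.0581) and with the window medians removed (0.0846). A broad peak at chr13:64005989-64014242 had a BrM2 departure of −1.53 ± 0.11, as its surroundings stood at 1.37. The H3K4me3 promoter peak of EFNB2, the ephrin-B2 ligand, departed by −0.64 ± 0.078 in BrM2, with CPM values of 257 and 201 in Par, compared with 318 and 256 in LM2 and with 200 and 169 in BrM2 (BrM2 against LM2, adjusted p = 0.423, and 7.83e-13 with the block). Leaving out Par replicate 1 gave an EFNB2 departure of −0.39, Par replicate 2 gave −1.01 and BrM2 replicate 2 gave −0.34.

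Gene groups of the chromosome were read at promoter peaks, from 7 lists ordered by role (plot of promoter peaks by list). They covered 60 H3K4me3 and 55 H3K27ac peaks, of which 57 and 52 had a mean count of at least 20. The H3K27ac peaks read for MYO16, FGF14 and FREM2 were exonic, 147701, 40073 and 134404 bp from the nearest coding start. Those of MYO16 and FGF14 entered the list medians. Between BrM2 and LM2, 2 H3K4me3 peaks of the lists were called (FLT1 higher, GJA3 lower) and 2 H3K27ac peaks (DLEU2 and GJA3, both lower). With the replicate block, 43 H3K4me3 peaks were lower and 2 higher, and 10 H3K27ac peaks were lower. Each gene was read at its promoter peak of the largest mean count. Outside these, H3K4me3 peaks at other promoters of DCLK1 (chr13:36428505-36429870) and HTR2A (chr13:47470956-47471344) were called lower in BrM2 without the block. Their DESeq2 adjusted p values were 0.0238 and 0.0492, and 0.214 and 0.188 with the window medians removed. No list peak was called in H3K4me3 without LM2 replicate 2 or BrM2 replicate 1, and in H3K27ac without any LM2 or BrM2 library. Of all promoter peaks of the chromosome, the block called 159 of 234 lower and 4 higher in H3K4me3, and 22 of 268 lower and 1 higher in H3K27ac, and nothing particular to the lists is read from their counts.

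The 15 genes of cell cycle and growth control had a median H3K4me3 level of 0.42 in LM2 and of −0.08 in BrM2. The mean of the line was above that of Par at 14 of 15 genes in LM2 and at 6 in BrM2. All chromosome 13 promoter peaks had medians of 0.45 and −0.03, and promoter peaks of all chromosomes −0.03 and −0.01. Among 227 chromosome 13 promoter peaks of mean count at least 20, 222 had a mean level above Par in LM2 and 104 in BrM2. These counts compare line means, whether or not single libraries overlapped Par. RB1 had CPM values of 122 and 91.4 in Par, compared with 161 and 123 in LM2 and with 106 and 80.8 in BrM2. Replicate 1 was higher than replicate 2 in every line, and within a replicate LM2 was highest (BrM2 against LM2, adjusted p = 0.532, and 1.66e-07 with the block). LATS2, a kinase of the Hippo pathway, had 228 and 132, 297 and 181, and 205 and 126 (adjusted p = 0.728, and 4.96e-09 with the block). CUL4A, the scaffold of a ubiquitin ligase, went from 253 and 170 in Par to 354 and 238 in LM2 and 245 and 147 in BrM2. SKA3, a kinetochore protein, was the list's highest in BrM2, at 81.1 and 77.6 in Par, compared with 119 and 107 in LM2 and with 120 and 94.8 in BrM2. With the block, 13 of the 15 genes were lower in BrM2 than in LM2, beside 159 of the 234 promoter peaks of the chromosome, and CCNA1 and SKA3 did not pass.

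The 7 genes of DNA repair and replication had H3K4me3 medians of 0.38 in LM2 and 0.06 in BrM2. BRCA2 stood at a CPM of 24.9 and 34.3 in Par, compared with 37.6 and 48.5 in LM2 and with 28.4 and 34.2 in BrM2. RFC3, a subunit of the clamp loader of replication, had 29.5 and 43.6, 30.8 and 51.4, and 37.3 and 51.2. Its LM2 level of 0.15 was among the lowest of the lists, beside 0.11 for the nucleotide excision repair nuclease ERCC5. With the block 6 of 7 were lower in BrM2 than in LM2, again beside 159 of 234 promoter peaks, and RFC3 was the exception (adjusted p = 0.948). H3K27ac medians were 0.53 and 0.11.

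Of 14 ligand and receptor genes, 10 had an H3K4me3 promoter peak and 8 a mean count of at least 20, with medians of 0.57 in LM2 and 0.11 in BrM2. FGF9, a fibroblast growth factor, had CPM values of 28.4 and 34.3 in Par, compared with 73.7 and 77.5 in LM2 and with 69 and 56.5 in BrM2, and both sub-populations stood above Par. The promoter of GAS6 had 217 and 168, 233 and 193, and 201 and 193 (BrM2 against LM2 with the block, adjusted p = 0.202). GPR183 had H3K27ac CPM values of 13.7 and 11 in Par, compared with 17.1 and 14.6 in LM2 and with 6.12 and 5.51 in BrM2 (BrM2 against LM2, adjusted p = 0.0901, and 0.0453 with the block). IRS2 had H3K4me3 values of 224 and 184, 291 and 271, and 187 and 198.

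The matrix genes had H3K4me3 medians of 0.72 in LM2 and 0.12 in BrM2 over 7 peaks counted by gene. COL4A1 and COL4A2, basement membrane collagen chains, share 1 divergent promoter peak, at a CPM of 140 and 112 in Par, compared with 229 and 187 in LM2 and with 163 and 113 in BrM2. FREM2, a protein of embryonic basement membranes, had 6.59 and 16.1 in Par, compared with 28.7 and 41 in LM2 and with 32.1 and 38.4 in BrM2, so its level was 1.71 in LM2 and 1.74 in BrM2. BrM2 and LM2 had an adjusted p of 0.994 at FREM2.

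Cell adhesion and neural genes had the highest list medians of LM2, 0.86 for H3K4me3 and 0.80 for H3K27ac, and 0.32 and −0.06 in BrM2. Several protocadherin promoters, which mediate homophilic adhesion, stood above Par in both sub-populations. PCDH20 had an H3K4me3 CPM of 1.72 and 2.53 in Par, compared with 5.74 and 15.2 in LM2 and with 7.2 and 15.7 in BrM2. PCDH8 had 8.88 and 11.9, 20.2 and 28.5, and 21.2 and 22.7. PCDH17 was higher in BrM2, with 3.15 and 7.89 in Par, compared with 5.74 and 11.2 in LM2 and with 19.2 and 26 in BrM2 (BrM2 against LM2, adjusted p = 0.113, and 0.00122 with the block). PCDH9 had 60.2 and 47.8, 106 and 83.4, and 70.5 and 62.2. The neuronal kinase gene DCLK1 stood at 36.4 and 33.7 in Par, compared with 64.3 and 67.9 in LM2 and with 40.8 and 48 in BrM2. GJB2, the connexin 26 gene, was the list's lowest in BrM2, at 78.2 and 51.1, 94.1 and 80.1, and 57.2 and 40.5.

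For transcription factors the H3K4me3 medians were 0.67 in LM2 and 0.06 in BrM2 over 10 genes. SOX21, a transcriptional repressor of the SOX family, had CPM values of 27.8 and 26.8 in Par, compared with 77.1 and 72.9 in LM2 and with 42.3 and 47.3 in BrM2. ZIC2, a zinc finger factor of neural development, had 245 and 215, 491 and 384, and 328 and 270, with H3K27ac at 69.3 and 99.4, 153 and 201, and 95.3 and 127. KLF5, a factor of epithelial proliferation, stood at 148 and 137, 186 and 147, and 118 and 116, with an LM2 level of 0.22, the lowest of the list. ZIC2 and SOX21 thus exceeded the median LM2 level of the chromosome, and KLF5 stayed below it. The microRNA hosts MIR17HG and DLEU2, host of miR-15a and miR-16-1, had H3K4me3 levels of 0.34 and 0.67 in LM2 and of −0.11 and −0.19 in BrM2. DLEU2 had H3K27ac CPM values of 120 and 73.9 in Par, compared with 116 and 130 in LM2 and with 66 and 50.6 in BrM2 (adjusted p = 0.0455), lost without LM2 replicate 1 (0.265), LM2 replicate 2 (0.431), BrM2 replicate 1 (0.294) or BrM2 replicate 2 (0.576) and with the window medians removed (0.927).

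**Figure D4:**
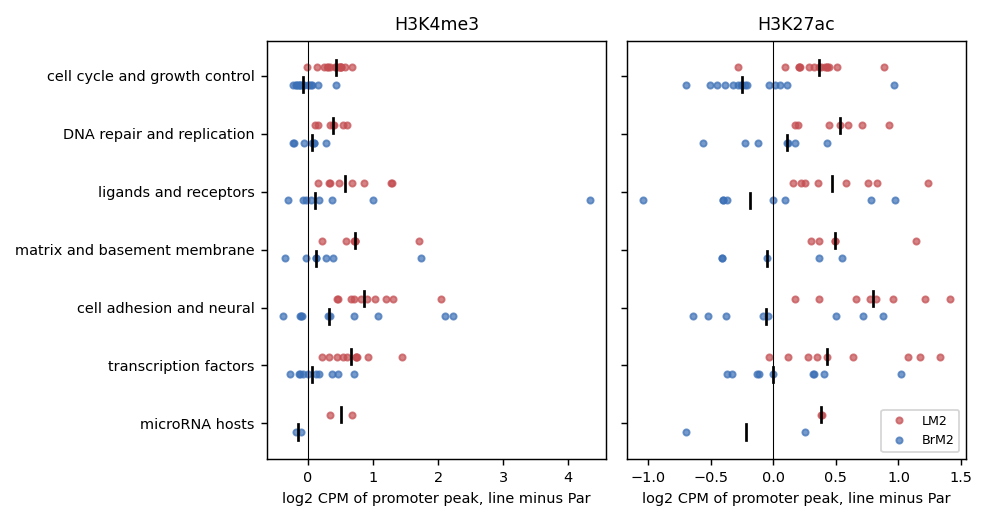
Log2 CPM of promoter peaks minus Par (x axis) for the genes of 7 lists (y axis), for H3K4me3 (left) and H3K27ac (right). Points are genes with a mean count of at least 20 and black bars list medians, and the LM2 medians lie between 0.36 and 0.86 while those of BrM2 lie between −0.255 and 0.32.

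As a check of cell type, claudin-low markers were present in every library, with a summed H3K4me3 promoter CPM of VIM, ZEB1, CD44, EGFR, SNAI2 and FN1 between 892 and 1001. The 10 epithelial markers, of which KRT8 and KRT18 share 1 peak that was summed once, came to 299 and 350 in Par, compared with 279 and 314 in LM2 and with 350 and 369 in BrM2. Single markers differed more between lines than these sums, with a CLDN4 CPM of 43.6 and 71.3 in Par, compared with 2.75 and 7.42 in LM2 and with 9.6 and 19.5 in BrM2. For ESR1 the CPM was 6.88 and 7.15 in Par, compared with 39.5 and 38.3 in LM2 and with 24.2 and 20.2 in BrM2. The part of these markers in the chromosome 13 values was not tested. The leukocyte, endothelial and liver markers PTPRC, PECAM1 and ALB had no promoter peak in either mark.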

How the data were processed

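H3K4me3 and H3K27ac ChIP-seq was made in Par, LM2 and BrM2, with 2 replicates per line and mark. The deposited values are raw counts of reads per peak: per the methods and the submitters' processing notes, reads were aligned to hg19 with Bowtie2 2.3.4.3, broad peaks were called with MACS2 2.1.2 on the merged reads of a mark, and the authors counted reads, extended by 150 bp, with featureCounts. The merged peaks are the same in every library. Peaks of the Y chromosome and the 3 input samples were left out.

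From these counts, DESeq2 1.42.0 (R 4.3.3) fitted line as the single term over all peaks of a mark, with 3 residual degrees of freedom, and peaks were called at a Benjamini-Hochberg adjusted p under 0.05. Levels were log2(CPM + 0.25), with CPM scaled to the reads in peaks of each library, for peaks of a mean count of at least 20. Genes came from GENCODE release 44 on GRCh37. Sequences are of the GRCh37 reference. The named peaks were, per mark and sub-population, the 3 highest and 3 lowest departures. They were taken among peaks with a mean count of at least 50 whose locally centred values did not overlap Par. They were thus picked on values of the libraries that the BrM2 against LM2 test compares. Other sites, called between BrM2 and LM2, were chosen after their values were seen. The members and lists were chosen with earlier results of these data known.

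Same-numbered replicates deviated together, with correlations of 0.777, 0.729 and 0.77 between lines for H3K4me3 and 0.33, 0.451 and 0.371 for H3K27ac, and the replicate number was therefore also fitted as a block. Libraries held 3489607 to 9839629 counts in H3K4me3 peaks and 1994996 to 6450028 in H3K27ac peaks. Alternatives were edgeR 4.0.16, other size factors, filters, pseudocounts and windows, removal of the window medians, and each library left out. The tests were checked on simulated data.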

Additional observations from a re-analysis of the deposited data

Results flagged for a closer look

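The 9 named peaks below differed between the lung and the brain sub-population by the DESeq2 test of the difference itself. This contrast uses the LM2 libraries by which the chromosome was picked. The peaks were also named for extreme departures of LM2 or BrM2 in the same libraries. Their adjusted p values are therefore descriptions and give no independent support. BrM2 was higher than LM2 on the log2 scale by 3.159 at the H3K4me3 peak of LINC00452 near GAS6 (adjusted p = 2.23e-11), by 2.210 at the MTUS2 promoter (0.00103), by 2.242 at the H3K27ac peak of TBC1D4 (4.32e-05) and by 1.394 at the H3K27ac peak nearest to SPRY2 (0.0497). BrM2 minus LM2 was −3.931 at the H3K27ac peak in DLEU7 (adjusted p = 8.42e-10), −2.295 at the one nearest to RXFP2 (0.0064) and −1.806 at the one nearest to DAOA (0.00122). For H3K4me3 it was −1.927 at SLC15A1 (0.000515) and −1.631 at DZIP1 (0.00938). Of these 9, the calls at LINC00452 and DLEU7 held with every library left out in turn.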

How the results depend on the processing

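With 2 replicates per line, the counts of calls depend on single libraries and on the pairing, and the cause of the changes below was not tested. The H3K4me3 level of LM2 (0.451) was 0.482 with median-of-ratios factors, 0.467 with TMM, 0.440 with a pseudocount of 1 and 0.465 with no filter. That of BrM2 (0.014) was −0.048 with median-of-ratios factors and −0.070 with TMM. The H3K27ac level of LM2 (0.578) was 0.692 outside H3K4me3 peaks. BrM2 was above Par in 40% of 10 Mb H3K4me3 windows (25% of 5 Mb windows), and in 6.25% of H3K27ac windows at a mean count of at least 50 and 50% with the replicate block (27.8%). Departures without a filter and at a mean count of at least 50 were 61 and 7 for LM2 and 72 and 9 for BrM2 in H3K4me3, and 249 and 19, and 317 and 27, in H3K27ac, where the replicate block gave 49 and 75.

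With the replicate block, H3K4me3 calls on the chromosome rose from 25 to 166 for LM2 against Par, from 31 to 62 for BrM2 against Par and from 28 to 206 for BrM2 against LM2, and H3K27ac calls of BrM2 against LM2 from 50 to 100. edgeR with the replicate block gave 233, 118 and 295 for H3K4me3 and 455, 243 and 358 for H3K27ac. edgeR without the block gave 15 for LM2 against Par in H3K4me3, and 189, 103 and 113 in H3K27ac. With window medians removed, LM2 against Par had 5 and 37 calls and BrM2 against LM2 26 in H3K27ac. A mean count of at least 20 gave 14 for BrM2 against LM2 in H3K4me3.

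Promoter peaks of the lists called in H3K4me3 were 5, 4 and 2 in these 3 contrasts, 42, 16 and 45 with the replicate block, and 46, 24 and 51 with edgeR and the block. In LM2 against Par 0 were called with window medians removed, and in BrM2 against LM2 1 by edgeR. In H3K27ac they were 1, 0 and 2, with 3, 2 and 10 under the replicate block, 3, 1 and 5 by edgeR, and 15, 8 and 19 with edgeR and the block. LM2 against Par then gave 2 with total-count factors, 2 at a mean count of at least 20 and 0 with window medians removed. BrM2 against Par gave 1 at a mean count of at least 20. BrM2 against LM2 gave 0 without independent filtering and 1 with window medians removed.

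With each library left out, the levels ran from 0.451 to 0.547 (LM2) and from 0.000 to 0.130 (BrM2) in H3K4me3, and from 0.512 to 0.690 and −0.060 to 0.121 in H3K27ac. BrM2 windows above Par ran from 25% to 62.5% and from 27.8% to 83.3%, and H3K4me3 departures from 15 to 34 (LM2) and 23 to 37 (BrM2). Calls ran, for LM2 and BrM2 against Par and BrM2 against LM2, from 3 to 21, 6 to 29 and 4 to 24 in H3K4me3 and from 14 to 71, 9 to 35 and 3 to 37 in H3K27ac. List calls ran from 1 to 5, 1 to 4 and 0 to 2 in H3K4me3, and from 0 to 2 for LM2 against Par and 0 to 1 for BrM2 against LM2 in H3K27ac.

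Among single named peaks, the call nearest to SPRY2 was lost with total-count factors (adjusted p = 0.0725), TMM (0.0543) and no independent filtering (0.0626). The replicate block added calls at 4 named peaks and ended none. With all H3K27ac peaks, an alternative chosen after seeing the data, the Pearson r of the marks along the chromosome was 0.935 for LM2 and 0.922 for BrM2. Where LM2 or BrM2 libraries held at most 3 reads in a peak, depth limits the size of a difference.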
